A study of Mus musculus with 3 samples.

Results

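The 10 genes described here are chemokines that stromal and endothelial cells are known to secrete: Cxcl1, Cxcl2 and Cxcl5, which attract neutrophils; Ccl2, Ccl7 and Ccl8, which attract monocytes; Cxcl10 and Ccl5, which interferon signalling induces; and Cxcl12 and Cx3cl1, which are made in resting tissue. They were chosen by gene symbol, out of 19733 genes with a named probe on the array; the rule uses no measured value, but earlier results of these data were known when it was set. The RNA came from primary cells of the cavernous tissue of the mouse penis (strain C57BL/6), called endothelial in the labels and grown in a medium with serum, heparin and vascular endothelial growth factor A. By label, 1 array holds cells kept in normal glucose (5 mmol), 1 holds cells kept in high glucose (30 mmol), and 1 holds cells kept in high glucose (30 mmol) after transfection with 200 pmol of siRNA against Ninj1 with Lipofectamine 2000. Exposure to glucose lasted 48 h in every group, and each array carries RNA combined from 3 numbered samples. Whether the other cells were given a non-targeting siRNA or the transfection reagent is not stated in the labels. Since each group has 1 array, no difference could be set against a replicate and no test was made: "higher" and "lower" speak of these arrays alone. The arrays are called NG-labelled, HG-labelled and siRNA-labelled, and signals are always given in that order.

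Chemokines are small secreted proteins that direct the movement of leukocytes through receptors coupled to G proteins. Endothelial cells and the fibroblasts and pericytes around vessels hold them on surface glycosaminoglycans, where passing leukocytes meet them. Transcription of the inflammatory members is driven by NF-kappaB, the factor activated by tumour necrosis factor, interleukin 1 and bacterial products, and that of Cxcl10 and its relatives also by interferons. Cxcl12 is instead produced steadily by stromal cells and holds Cxcr4-bearing cells in place, while Cx3cl1 is made as a membrane-anchored adhesion molecule that can be shed.

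Promoter sequence is shown for 4 members, picked after their differences between arrays were seen. Whether a motif match goes with the size of a difference was not tested. It comes from RefSeq (GRCm38.p6) and covers the 250 bases before the transcription start on the coding strand: Cxcl1 at chr5:90890995-90891244 (plus strand), Cxcl10 at chr5:92348890-92349139 (minus strand), Ccl8 at chr11:82114935-82115184 (plus strand) and Cxcl12 at chr6:117168285-117168534 (plus strand). Capitals mark matches, on either strand and with overlapping matches merged, to the NF-kappaB consensus or to the interferon-stimulated response element (GAAA, any 2 bases, then GAAA).
Cxcl1: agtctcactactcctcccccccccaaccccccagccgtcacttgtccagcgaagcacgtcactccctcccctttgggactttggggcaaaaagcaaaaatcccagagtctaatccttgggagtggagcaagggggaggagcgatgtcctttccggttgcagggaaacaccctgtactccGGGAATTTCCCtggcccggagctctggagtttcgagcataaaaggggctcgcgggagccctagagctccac
Cxcl10: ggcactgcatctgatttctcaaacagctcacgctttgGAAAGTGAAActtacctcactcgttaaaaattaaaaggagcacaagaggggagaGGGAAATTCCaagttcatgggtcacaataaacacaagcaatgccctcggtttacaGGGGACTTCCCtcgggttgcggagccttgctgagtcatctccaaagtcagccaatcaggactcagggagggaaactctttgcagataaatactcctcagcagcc
Ccl8: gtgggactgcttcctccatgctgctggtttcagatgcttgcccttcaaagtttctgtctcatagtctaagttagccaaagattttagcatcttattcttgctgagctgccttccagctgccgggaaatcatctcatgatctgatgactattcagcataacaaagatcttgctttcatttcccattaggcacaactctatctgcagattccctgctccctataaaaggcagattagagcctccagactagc
Cxcl12: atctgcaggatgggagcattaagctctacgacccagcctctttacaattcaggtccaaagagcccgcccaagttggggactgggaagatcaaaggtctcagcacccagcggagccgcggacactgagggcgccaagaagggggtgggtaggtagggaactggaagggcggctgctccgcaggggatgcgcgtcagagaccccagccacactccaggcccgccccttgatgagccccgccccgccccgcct
The NF-kappaB consensus was found in 3 of the 6 members listed in the promoter table. The match GGGAATTTCCC lay 71 to 61 bases before the start of Cxcl1, and the same 11 letters lay 97 to 87 bases before the start of Cxcl2. Cxcl10 had the matches GGGAAATTCC, 159 to 150 bases before its start, and GGGGACTTCCC, 104 to 94 bases before it. The response element was found in 1 of the 6, as GAAAGTGAAA at 213 to 204 bases before the start of Cxcl10. The interferon gamma-activated site TTCNNNGAA was found in 0 of the 6. Among 32851 promoter windows of the same length, 7.25% held the NF-kappaB consensus, 2.98% the response element and 7.02% the gamma-activated site. The windows of Ccl8, Cxcl12 and Cx3cl1 held no match to any of them. Of these, Cx3cl1 differed by only -0.15 on the log2 scale between the siRNA-labelled and HG-labelled arrays. The members Ccl2, Ccl5, Ccl7 and Cxcl5 have no entry in the promoter table and were not scanned. Cxcl2 and Cx3cl1 were scanned, but their sequences are not shown.

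All 10 members were well above background on all 3 arrays. Every member except Ccl2 rests on 1 spot per probe and array, and Cxcl12 has a pair of probes. Levels are the scanner software's processed signal, a linear brightness that depends on the probe as well as on the RNA, so levels of different genes are not ranked. Differences are on the log2 scale after subtracting each array's 75th percentile, and a gene is counted as differing where that difference reaches 2-fold. Repeated spots of a probe gave a standard deviation of 0.08 for a difference between single spots, which covers spot noise only. It comes from the median over 300 probes, 0.06 for a single spot. The 95th percentile over those probes was 0.19 and the largest value 0.44, so the noise of a given probe may be larger. Of the arrays' probes, 67.1% to 70.6% were well above background.

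The labels carry a limit that touches every direction below. Ninj1, the target of the siRNA, had signals of 20413, 16291 and 25539, and was thus brightest where the labels name a knockdown. Group words in the file names swap the HG-labelled and siRNA-labelled arrays, and positions on the slide do not match between names and file contents. For this reason each array keeps the word "labelled" here. The endothelial markers Tie1, Erg and Emcn were not above background on any array, and 11, 11 and 9 of 14 endothelial markers were above it. Of all 19733 named genes, 15758 were above it on at least 1 array. All 11 fibroblast markers were above it on every array. On the HG-labelled array Pecam1, Cdh5 and Vwf were dim, at 76.5, 185 and 66.2. Egfl7 and Eng had 3194 and 2242, and Kdr 7298 (233 by its other probe). The fibroblast markers there ran from 929 for Dpt to 432729 for Dcn, with Col1a2 at 189258. Signals also depend on the probe. The markers thus bore out the labelled cell type only weakly, and did not show a purely endothelial culture.

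The comparison of the siRNA label with the high glucose label asks what the Ninj1 siRNA changed under high glucose. Cxcl5, Ccl8 and Cxcl12 were each more than 6-fold lower on the siRNA-labelled array, and no member was 2-fold higher. That is 3 of 10 members at least 2-fold lower, where 8.35% of all named genes compared were (1283 of 15359), and 0 of 10 at least 2-fold higher, where 6.62% were. In either direction 15.0% of all named genes reached 2-fold. With 10 members chosen for their known roles, the count is a description and carries no test. In all, 9 members were lower and 1 was higher, with a median log2 difference of -0.71 and a range from -2.77 to 0.08, beside a median of 0.01 over the 14518 genes measured on both arrays. The central 95% of those genes lay between -1.62 and 1.55. The same 3 members were past 2-fold in 9 of 9 processing settings that kept the labels. These are not 9 separate checks. For a member with 1 probe, the filters on dim probes and the averaging of probes cannot change the value. The value table holds nearly the same signal where that probe has 1 spot.

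Markers of cell types also differed between the siRNA-labelled and HG-labelled arrays. Every 2-fold call below stands beside 8.35% of all named genes at least 2-fold lower and 6.62% at least 2-fold higher. Levels were summed in units of each array's 75th percentile, and a sum mainly follows its brightest genes. The endothelial, macrophage and T cell sums rest most on the brightest probes of Kdr, Itgam and Cd4. On the HG-labelled array these had signals of 7298, 21570 and 4132. Other probes gave 233 for Kdr, 31.3 and 68.9 for Itgam and 26.4 for Cd4. These sums therefore do not settle the level of a cell type. The 11 fibroblast markers summed to 525, 532 and 369. On the last array 5 of them were at least 2-fold lower than on the HG-labelled array (Dpt, Lum, Fbln1, Col3a1 and Col1a1). Of the 11, 8 were lower, beside 7110 of the 14518 genes measured on both arrays. The other 3 were higher (Fap by 0.86, Pi16 by 0.29 and Thy1 by 0.10 on the log2 scale). The 10 smooth muscle and pericyte markers summed to 55.6, 56.5 and 29.5, with Acta2, Pdgfrb, Cnn1 and Tagln lower by that measure and Cspg4 higher, and Myh11 was not above background. The 14 endothelial markers summed to 7.73, 7.83 and 8.53, with Vwf, Robo4, Tek and Cldn5 lower (the last pair as bounds) and Cdh5 and Esam higher. The 8 macrophage markers summed to 19.2, 18.6 and 20.0, with Adgre1 and Lyz2 lower, Cd14 higher and Cd163 not above background. T cell markers (3.12, 3.19 and 3.45), of which Cd3g, Cd8a and Cd2 were not above background, neutrophil markers (42.4, 43.1 and 45.6), of which Ngp was not, and epithelial markers (0.256, 0.248 and 0.647), of which Epcam, Cdh1 and Krt8 were not, were highest on the siRNA-labelled array. There S100a8 and S100a9 of the neutrophil list and Krt18 and Krt19 of the epithelial list were at least 2-fold higher than on the HG-labelled array. Csf3r, the brightest neutrophil marker, was lower (-0.33), the only 1 of the 5 measured. All 4 epithelial markers measured were higher, beside 7408 of the 14518 genes measured on both arrays. In RNA from a whole culture, fewer cells of a type and less RNA per cell cannot be told apart, and the part of these markers in the chemokine differences was not tested.

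**Figure D1:**
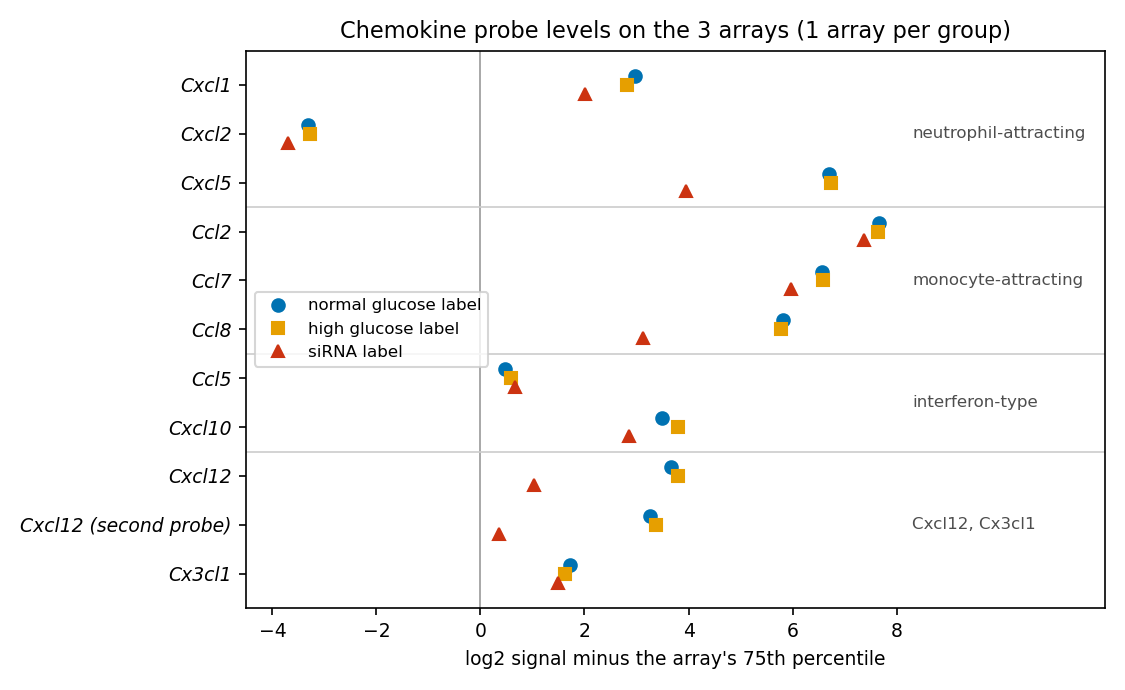
Level of each of the 10 chemokines on the 3 arrays, as log2 processed signal minus the array's 75th percentile (horizontal axis), with 1 row per probe and 1 mark per array. The mark of the siRNA-labelled array stands far to the left of the other marks for Cxcl5, Ccl8 and both probes of Cxcl12.

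Among the neutrophil chemokines, Cxcl5, an attractant of neutrophils through Cxcr2, had signals of 184393, 183716 and 31499. The siRNA-labelled array stood apart, and the others were close to each other. Cxcl5 was thus 6.83-fold lower on the siRNA-labelled than on the HG-labelled array (log2 difference -2.77), and 0.585% of the genes measured had a lower difference. Cxcl1, a ligand of the same receptor that is released early in inflammation, had signals of 13905, 12151 and 8148. It was 1.75-fold lower (-0.80), short of 2-fold. Cxcl2, its close relative, had signals of 179, 179 and 155. Its difference of -0.43 (1.35-fold lower) was several times the median spot noise, but rests on 1 dim spot per array whose own noise is unknown. A lower difference was found in 20.4% of genes and in 26.0% of genes of like brightness. The 3 neutrophil chemokines therefore had the same sign but ranged from -2.77 to -0.43.

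Among the monocyte chemokines, Ccl8, which attracts monocytes and other leukocytes, had signals of 100497, 94962 and 17708. The array labelled siRNA again stood apart, 6.28-fold lower than the HG-labelled array (-2.65). Ccl7, a ligand of the monocyte receptor Ccr2, had signals of 168228, 165680 and 126564 and was 1.53-fold lower (-0.62). Ccl2, the main Ccr2 ligand, is the only member printed 10 times on each array, and its mean signals were 361892, 346178 and 335361. Its spots ran from 337567 to 394495, from 326258 to 381754 and from 314015 to 359358 before scaling, so the unscaled spots overlapped. Divided by each array's 75th percentile (1781, 1731 and 2026), every siRNA-labelled spot lay below every spot of the other arrays. After scaling the difference was -0.27 (1.21-fold lower), with a standard deviation between spots of 0.07, 0.06 and 0.06 on the log2 scale. The monocyte class thus also held 1 large difference, in Ccl8, and smaller ones in the Ccr2 ligands Ccl2 and Ccl7.

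The interferon-type members differed from each other. Cxcl10, which attracts activated T cells through Cxcr3, had signals of 20046, 24133 and 14677. It was brightest on the HG-labelled array and dimmest on the siRNA-labelled array, 1.92-fold lower (-0.94). This value is close to the threshold: it ran from -1.05 to -0.93 and passed 2-fold in 3 of the 9 settings, with the lowest value under cyclic loess. Ccl5, an attractant of T cells and monocytes, had signals of 2465, 2586 and 3209. It was the only member higher on the siRNA-labelled array, by 0.08 (1.06-fold), which equals the spot noise.

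Of the chemokines made in resting tissue, Cxcl12 was measured by a pair of probes, which gives it a second reading within each array. The brighter probe had signals of 22649, 23994 and 4116, a 6.83-fold lower signal on the last than on the HG-labelled array (-2.77). The other probe had signals of 17067, 17884 and 2600, which is 8.05-fold lower (-3.01). Both probes placed the siRNA-labelled array far below the others. Cx3cl1, the membrane-anchored attractant of Cx3cr1-bearing monocytes and T cells, had signals of 5853, 5374 and 5671. The unscaled signals lay close together, and the scaled difference was -0.15 (1.11-fold lower).

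**Figure D2:**
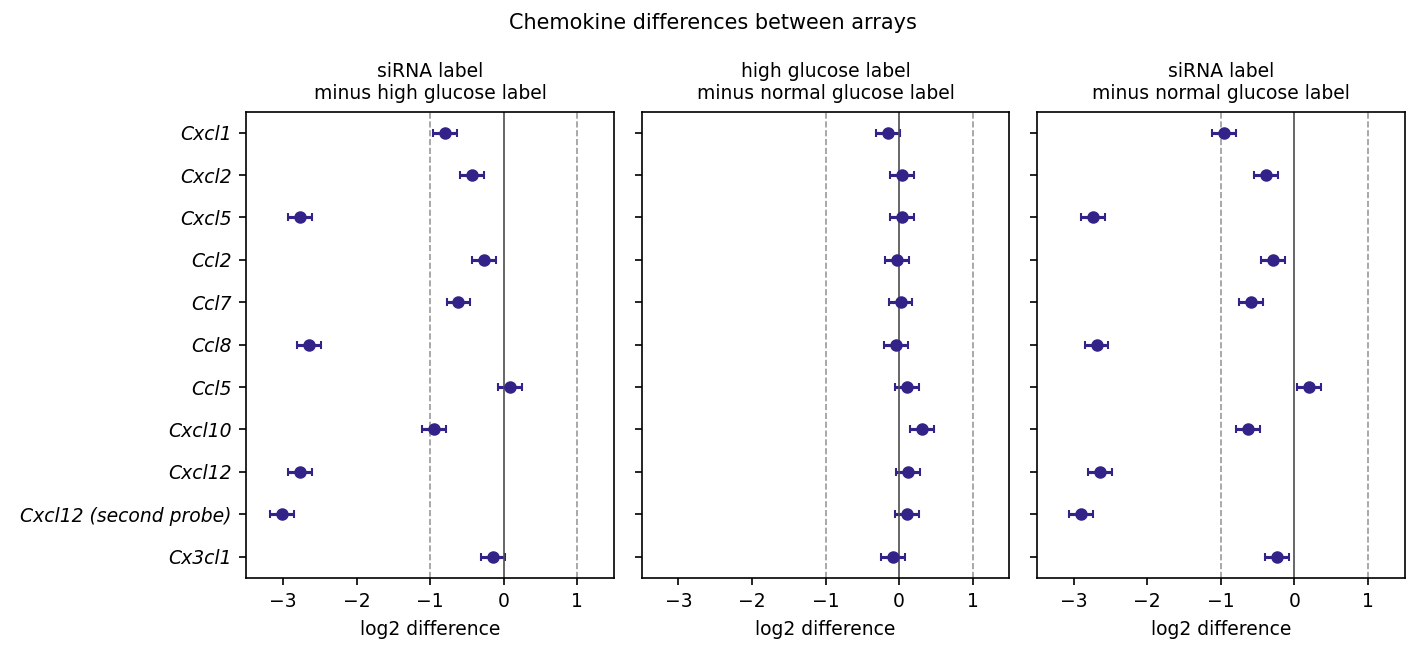
Log2 difference of each member in the 3 comparisons between arrays, grouped by class, with bars of 2 standard deviations of the difference of single spots (0.08 each) and lines at 2-fold. Cxcl5, Ccl8 and Cxcl12 lie past the line at 2-fold lower in both comparisons with the siRNA-labelled array, and all members lie inside the lines for high glucose against normal glucose.

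Set side by side, the classes did not separate by the size of the difference. The median log2 difference between the siRNA-labelled and HG-labelled arrays was -0.80 for the 3 neutrophil members, -0.62 for the 3 monocyte members and -0.43 for the 2 interferon-type members. The ranges overlapped, from -2.77 to -0.43, from -2.65 to -0.27 and from -0.94 to 0.08. The neutrophil and monocyte classes each had 1 member past 2-fold, and 0 of the 2 interferon-type members reached it. With 2 or 3 genes per class and 1 array per group the difference between classes was not tested.

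**Figure D3:**
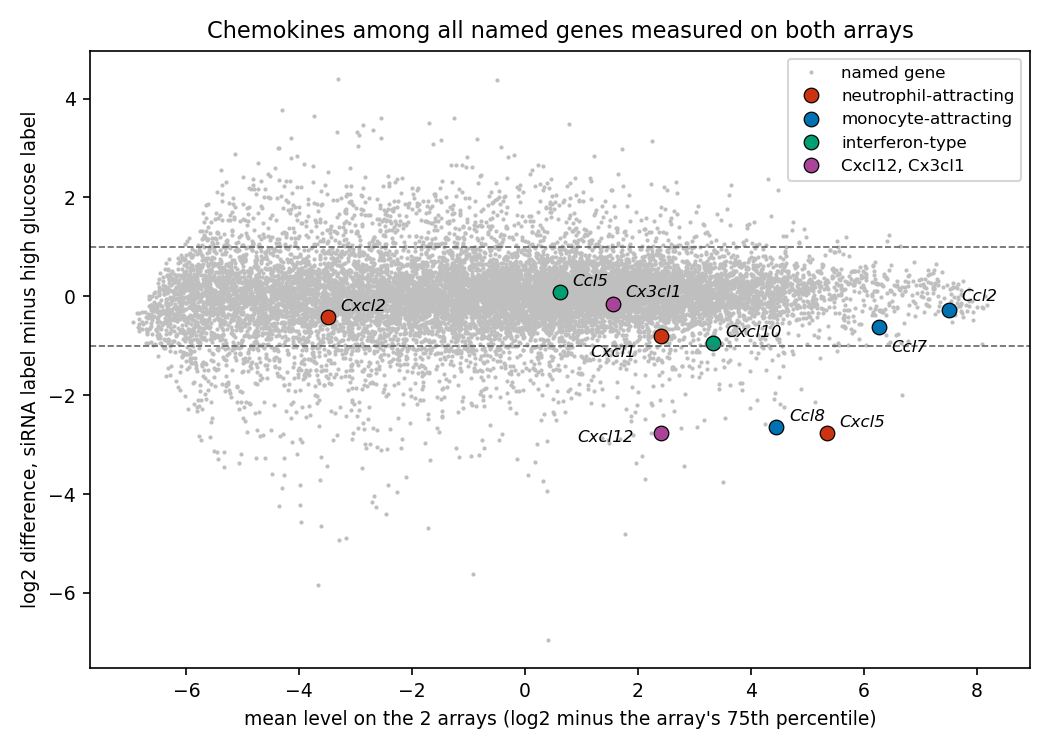
Log2 difference between the siRNA-labelled and HG-labelled arrays (vertical axis) against mean level (horizontal axis) for all genes measured on both arrays, with the 10 members marked. Cxcl5, Ccl8 and Cxcl12 lie at the lower edge of the cloud, and the other members lie between -0.94 and 0.08.

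The comparison of the high glucose label with the normal glucose label asks how the chemokines differed between 30 mmol and 5 mmol glucose without siRNA. No group is labelled as an osmotic control, so glucose and osmolarity cannot be told apart. No member reached 2-fold, 0 of 10, where 1.51% of all named genes compared did (227 of 15078), 0.690% lower and 0.816% higher. A count of 0 of 10 is close to that background. The log2 differences ran from -0.15 for Cxcl1 to 0.31 for Cxcl10, with a median of 0.03, beside a median of -0.01 and a standard deviation of 0.19 over all genes measured. Cxcl10 was 1.24-fold higher on the HG-labelled array, a larger difference than in 97.6% of genes measured and in 99.8% of the 1449 genes of like brightness. It stood on 1 spot per array. Cxcl12 was higher by 0.12 and 0.11 with its probes and Ccl5 by 0.11, Cx3cl1 differed by -0.08, and Cxcl5, Cxcl2, Ccl7, Ccl2 and Ccl8 lay between -0.04 and 0.04, within the spot noise of 0.08.

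The comparison of the siRNA label with the normal glucose label shares an array with each of the others, so it is not independent of them. Again 3 of 10 members were at least 2-fold lower, where 8.09% of all named genes were, and 0 were 2-fold higher, where 6.48% were. In either direction 14.6% of all named genes reached 2-fold. Cxcl5 was 6.66-fold lower (-2.74), Ccl8 6.46-fold lower (-2.69) and Cxcl12 6.26-fold lower (-2.65). Cxcl1 followed at 1.94-fold lower (-0.96), passing 2-fold in 1 of 9 settings, with -1.03 under cyclic loess. Cxcl10 was 1.55-fold lower (-0.64), less than against high glucose, since its level was higher on the HG-labelled array than on the NG-labelled array. Ccl5 was 1.14-fold higher (0.19), and Ccl2, Ccl7, Cxcl2 and Cx3cl1 lay between -0.60 and -0.23.

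Most members lie beside other chemokine genes, and neighbours in the RefSeq gene order differed in size and sign. On chromosome 11, Ccl2 (-0.27) and Ccl7 (-0.62) precede Ccl11, an eosinophil attractant whose signal was 5310, 5016 and 1030 and whose log2 difference between the siRNA-labelled and HG-labelled arrays was -2.51. Ccl12, a ligand of Ccr2, comes next and was higher by 0.90, and Ccl8 follows at -2.65. In the other group of genes on chromosome 11, Ccl5 at 0.08 is followed by Ccl9 at -1.38, Ccl6 at -1.05, Ccl3 at -1.54 and Ccl4 at -0.72, which attract monocytes and other leukocytes. On chromosome 5, Cxcl5 at -2.77 lies beside the platelet chemokines Ppbp, higher by 1.16, and Pf4, higher by 0.69, and is followed by Cxcl3 at 0.45, Cxcl1 at -0.80 and Cxcl2 at -0.43. Cxcl9, which shares the receptor Cxcr3 with Cxcl10 and lies beside it, was 5.15-fold lower (-2.36), with -2.82 by its other probe. Neighbouring chemokines thus differed by unlike amounts, and some with opposite signs. Several of the higher neighbours were dim, with 1 spot per array. Ppbp had signals of 30.0, 23.5 and 61.5, Ccl12 123, 112 and 244, and Cxcl3 316, 270 and 432. Pf4 (2701, 1678 and 3164) was dimmest on the HG-labelled array. It differed by only 0.04 between the siRNA-labelled and NG-labelled arrays.

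**Figure D4:**
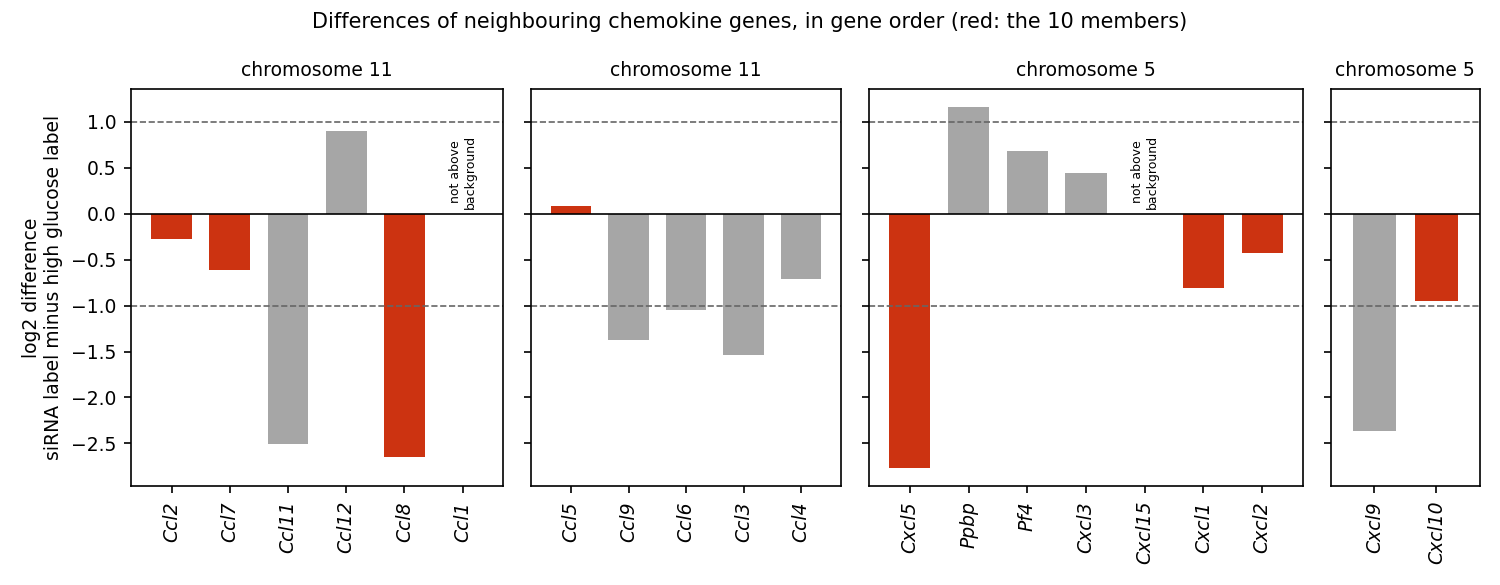
Log2 difference between the siRNA-labelled and HG-labelled arrays for chemokine genes in the order of the RefSeq gene table, with 1 panel per group of neighbouring genes, the members in red and dashed lines at 2-fold. Within the groups that hold Cxcl5, Ccl8 and Ccl5, neighbouring genes lie on both sides of 0.

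Over all 37 chemokine genes listed, 28 could be compared between the siRNA-labelled and HG-labelled arrays, of which 10 were at least 2-fold lower and 2 at least 2-fold higher, beside 8.35% and 6.62% of all named genes, with a median of -0.69 over the 26 measured on both arrays. Beside Cxcl5, Ccl8, Cxcl12, Ccl11 and Cxcl9, those lower were Cxcl16, a membrane-anchored chemokine (2.54-fold), Cxcl14 (2.13-fold), Ccl3 (2.90-fold), Ccl9 (2.60-fold) and Ccl6 (2.07-fold). Those higher were Ppbp, from 23.5 to 61.5, and Cxcl17, which was not well above background on the HG-labelled array and was at least 3.54-fold higher on the siRNA-labelled array. Between high glucose and normal glucose, Ccl28, an epithelial chemokine, was the only listed chemokine past 2-fold, with signals of 223, 53.8 and 39.5 and a 4.03-fold lower level on the HG-labelled array.

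The main receptors of several members were not above background on any array. This held for 8 of 18 chemokine receptors, including Cxcr2, the receptor for Cxcl1, Cxcl2 and Cxcl5, the Ccl2 and Ccl7 receptor Ccr2, and Cx3cr1. Among all 19733 named genes, 15758 were above background on at least 1 array. Cxcr4, the receptor for Cxcl12, was above background on the siRNA-labelled array only, at a signal of 17.7. Cxcr3, the receptor for Cxcl10, was above it on that array, at 121, and was at least 4.82-fold higher there than on the HG-labelled array. Ccr1, a receptor of Ccl5 and Ccl7, was at least 6.78-fold higher and Cxcr1 at least 3.83-fold lower, and the receptors measured on both arrays with the largest differences were Cxcr6 (-0.81), Ccr7 (-0.74), Ccr8 (0.45) and Ccr10 (0.24). Over the 3 arrays the signals of these receptors ran from 5.33 to 181.

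Atypical receptors bind chemokines and remove them without signalling through G proteins. Ackr3, which takes up Cxcl12, had signals of 5839, 5879 and 2338 and was 2.94-fold lower on the siRNA-labelled than on the HG-labelled array, so Cxcl12 and its scavenging receptor were both lower there. Ackr1, which binds many CC and CXC chemokines on venular endothelium, had signals of 114, 232 and 102. It was 2.67-fold lower on the siRNA-labelled array and 2.10-fold higher on the HG-labelled array than on the NG-labelled array. Ackr4 was 2.28-fold lower and Ackr2 higher by 0.13. Thus 3 of 4 atypical receptors were at least 2-fold lower, beside 8.35% of all genes. Between the siRNA-labelled and NG-labelled arrays 2 of 4 were, beside 8.09%, and Ackr1 differed by -0.35.

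Genes that process or present chemokines had a median difference of 0.14, with 1 of the 11 compared at least 2-fold lower, close to the 8.35% of all named genes. That was Dpp4, a protease that trims Cxcl10 and Cxcl12, at least 2.18-fold lower and not well above background on the siRNA-labelled array. Adam17, a protease that sheds Cx3cl1 and Cxcl16, differed by -0.83 (-0.77 by its other probe), and the gelatinase Mmp9 by -0.58. Sdc1, a heparan sulphate proteoglycan, was higher by 1.00, just inside 2-fold, and the heparan sulphate enzyme Ndst1 was higher by 0.38.

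Upstream of the inflammatory members, NF-kappaB subunits and regulators had 1 of 12 compared at least 2-fold lower, a share close to the 8.35% of all named genes, 0 higher, and a median of -0.34. The lower gene was Tnfaip3, an inhibitor of the pathway that is itself an NF-kappaB target, at 2.34-fold lower, followed by Nfkbie at -0.96, Tnip1 at -0.67 and Nfkb1 at -0.52. Of the upstream cytokines and receptors, 3 of 12 were at least 2-fold lower and 1 was higher, beside 8.35% and 6.62%, with a median of -0.32. The receptors Tlr2 (2.77-fold) and Tlr3 (2.39-fold) were lower, Tnfrsf1a, the receptor for tumour necrosis factor, differed by -0.40 (-0.13 by its other probe), and Tnf itself was at least 2.96-fold lower, not well above background on the siRNA-labelled array. Il6, a cytokine that NF-kappaB also induces, went the other way, with signals of 11218, 10028 and 55604, which is 4.74-fold higher on the siRNA-labelled array. Il1a and Il1b were not above background on any array.

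The interferon pathway lies upstream of Cxcl10. Of its 14 genes compared, 5 were at least 2-fold lower and 0 higher, beside 8.35% and 6.62% of all named genes. Of the 14, 13 were below 0, beside 7110 of the 14518 genes measured on both arrays, and the median was -0.71. Among the lower genes Irf7, a factor that drives type I interferon genes, was 2.79-fold lower, Ifngr1, a chain of the receptor for interferon gamma, 2.64-fold, Irf1 2.37-fold and the type I interferon receptor chain Ifnar2 2.11-fold, while Ifng itself was not above background. Of 16 interferon-induced genes compared, 10 were at least 2-fold lower and 0 higher, beside the same 8.35% and 6.62%, with a median of -1.09. Among these were Oas2 (5.20-fold), Ifit3 (4.30-fold), Bst2 (3.88-fold) and Ifit1 (2.76-fold), all antiviral effectors. Between high glucose and normal glucose, where Cxcl10 was 1.24-fold higher, 0 of the 16 reached 2-fold, close to the 1.51% of all named genes. Of the 16, 13 were above 0, beside 6352 of the 14488 genes measured on both arrays, and the median was 0.07. Cxcl9 was higher by 0.23 in that comparison, with 0.20 by its other probe.

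**Figure D5:**
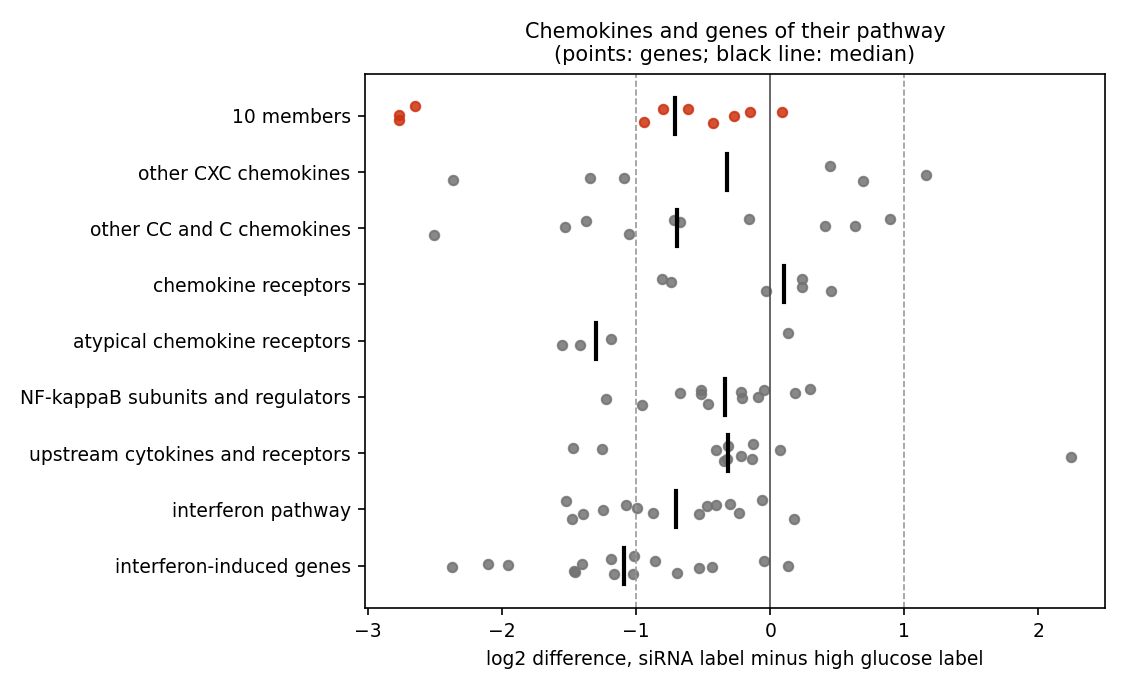
Log2 difference between the siRNA-labelled and HG-labelled arrays (horizontal axis) for the 10 members and the genes of 8 chemokine-related lists measured on both arrays, with 1 point per gene, dashed lines at 2-fold and a black line at the list's median. The medians of the interferon-induced genes (-1.09) and the atypical receptors (-1.30) lie farthest below 0, and that of the chemokine receptors (0.10) lies above it.

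Adhesion molecules, which leukocytes use beside chemokines to leave the blood, did not share a direction. Of 10 compared, 2 were at least 2-fold higher on the siRNA-labelled than on the HG-labelled array and 1 was lower, beside 6.62% and 8.35% of all named genes, with a median of 0.33. Selp was 9.96-fold higher and Sele 4.21-fold higher, which are the selectins that capture leukocytes. Both were dim on the NG-labelled and HG-labelled arrays, with signals of 56.7, 54.3 and 632 for Selp and 30.5, 31.1 and 154 for Sele. Icam2 was higher by 0.75, and the integrin ligand Icam1 was 2.93-fold lower.

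The direction of each comparison depends on which array is which. The 3 assignments tried only rename the arrays and leave their values unchanged. Under each of them it is therefore, by construction, the siRNA-labelled array that stands apart in Cxcl5, Ccl8 and Cxcl12. If the group words in the file names were right, that array would be high glucose without siRNA. The 3 members would then be lower in high glucose than in normal glucose (3 of 10, where 8.09% of all named genes would be at least 2-fold lower). In the siRNA group 0 of 10 would be 2-fold lower than in high glucose, where 6.62% of all named genes would be. If the words went with the positions stored in the file contents, that array would be normal glucose. The same 3 would be higher in high glucose than in normal glucose, where 8.09% of all named genes would be at least 2-fold higher.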

How the data were processed

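Total RNA was labelled with Cy3 and hybridised to 3 single-colour Agilent arrays of 1 slide, read in 1 scan. Per the file headers, the intensity values that the authors deposited come from Agilent Feature Extraction 11.0.1.1, which subtracts background. The deposited value table holds linear, uncentred intensity (column medians 118, 118 and 129), within 0.1% of the processed signal for 100% of 39030 probes with a single spot. How it combines repeated spots is unknown.

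From these values, outlier spots were removed (109, 147 and 107 per array). The log2 processed signal was averaged over a probe's spots and the 75th percentile over all probes was subtracted. A probe was above background where at least 50% of its spots carried that mark. Where this held on 1 of the compared arrays, the difference is a bound of the bright value against the dim probe's value or, if higher, the lowest value above background on that array. Each gene is represented by its brightest probe above background. The number of arrays, 1 per group, limits the precision. Accessions were matched to the RefSeq table (GRCm38.p6), which named 26030 of 39398 probes. The files were annotated on another build (mm9), so this table gave only names and gene order, and promoters carry their own build.

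The members and gene lists were chosen with earlier results of these data known. All members are named. Of each related list up to 4 genes with the largest measured difference between the siRNA and high glucose labels are named, with any measured gene past 2-fold between the glucose labels. Neighbours of members in gene order, receptors and genes given as bounds were named after their values were seen. Some genes of these lists are not reported here. Alternatives were quantile normalization, cyclic loess (limma 3.58.1 in R 4.3.3), median scaling over probes that all arrays detect, normexp (offset 50), the value table, no filter or a stricter filter on dim probes, averaging a gene's probes, other thresholds (1.5-fold, 3-fold), and exchanged arrays. Normexp, planned on mean signals, ran on median spot signals. Assignment by slide position was added after seeing the data. Scripts were checked on simulated data.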

Additional observations from a re-analysis of the deposited data

How the results depend on the processing

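Over the 9 settings that kept the labels and the 2-fold threshold, no member changed sign in any comparison. In both comparisons with the siRNA label Cxcl5, Ccl8 and Cxcl12 were past 2-fold. Some of the 9 could not alter a member with 1 probe, so they are not separate checks. For siRNA against high glucose Cxcl5 ran from -2.94 to -2.76, Ccl8 from -2.80 to -2.63 and Cxcl12 from -2.89 to -2.75. At 1.5-fold, 6 members were past the threshold in each comparison with the siRNA label, all lower, where 16.0% of all named genes compared were lower by that much for siRNA against high glucose and 15.8% for siRNA against normal glucose. With the high glucose and siRNA arrays exchanged, 0 members were 2-fold lower for siRNA against high glucose, where 6.62% of all named genes were. Cxcl5 became 2.77, Ccl8 2.65 and Cxcl12 2.77, where 8.35% of all named genes were 2-fold higher. Then 3 members were past 2-fold, all 3 lower, for high glucose against normal glucose, where 8.09% were lower. For siRNA against normal glucose 0 were past it, 0 lower, where 0.690% were lower and 0.816% higher. There Cxcl5 became 0.036 and Cxcl12 0.12. With arrays assigned by slide position, an alternative chosen after seeing the data, 0 members were past 2-fold and 0 lower for siRNA against high glucose (Cxcl5 0.036, Cxcl12 0.12). Of all named genes 0.690% were lower there and 0.816% higher. Then 3 members were past it for high glucose against normal glucose, where 8.09% of all named genes were higher. For siRNA against normal glucose 0 were lower (Cxcl5 2.77, Ccl8 2.65, Cxcl12 2.77), where 6.62% were lower and 8.35% higher.

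Over all genes, normexp gave 619 higher and 783 lower for siRNA against high glucose, beside 1017 and 1283, 605 and 769 for siRNA against normal glucose, beside 990 and 1237, and 43 and 33 between the glucose labels, beside 123 and 104. For the glucose labels, having no filter on dim probes gave 433 and 329, and a filter on every array 35 and 26. The 1.5-fold and 3-fold thresholds gave 2233 and 2463, and 409 and 525, for siRNA against high glucose, 2142 and 2409, and 392 and 508, for siRNA against normal glucose, and 229 and 187 at 1.5-fold between the glucose labels. No paired analysis was possible because each group has 1 array, and for the same reason no array could be left out. Most members rest on a single spot per array, so spot noise was taken from other probes, and culture and hybridisation error are unknown.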
